A study of Mus musculus with 9 samples.

Results

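The genes described here are 8 chemokines, most of which draw neutrophils or monocytes, taken by their symbols from a count table of 58735 human genes: the 6 CXC ligands CXCL1, CXCL2, CXCL3, CXCL5, CXCL6 and CXCL8, and the 2 CC ligands CCL2 and CCL20. All 8 had enough reads to be among the 15492 genes tested. They were measured by RNA sequencing in Caki cells, an established human renal carcinoma line described in the labels as of clear cell type, that had received 1 of 3 retrovirus-based vectors and were selected with G418. The first group carried YAP1-S127A, in which an alanine replaces the serine at which Hippo kinases restrain the protein. The second carried wild-type YAP1, and the third the empty vector, named MX. Each group held 3 libraries from cells grown in DMEM/F12 with serum, all resting on G418-resistant populations, and no label records separate cultures or the number of clones in a population. The p-values therefore weigh a difference only against the spread of libraries within groups, and that spread may be technical. The comparisons ask how the chemokine transcripts differ when active or wild-type YAP1 is added to these cells.

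Chemokines are small secreted proteins that guide leukocytes along a gradient held on cell-surface glycans. The 6 CXC ligands share a glutamate-leucine-arginine motif, bind the receptor CXCR2 and, for some of them, CXCR1, and recruit neutrophils. CCL2 acts through CCR2 on monocytes and CCL20 through CCR6 on lymphocytes and dendritic cells. Epithelial cells transcribe most of them in response to NF-kB and AP-1 factors, and the transcripts are short-lived because AU-rich sequences mark them for decay. YAP1 is a transcriptional coactivator that works with TEAD factors.

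Library totals ran from 15789722 to 24811150 counts, and the 8 chemokines together took 0.113 to 0.306% of them. YAP1 itself lay between 631 and 741 CPM (counts scaled to library size by TMM) with YAP1-S127A, between 1003 and 1519 CPM with YAP1 and between 91.1 and 108 CPM in MX, so the introduced gene followed the labels. Its textbook targets CYR61 and ANKRD1 rose by 1.34 and 2.84 on the log2 scale with YAP1-S127A against MX, and by 0.96 and 2.05 with YAP1 (edgeR adjusted p = 0.00199 at most). Counts of the mitochondrial genome made up 7.40 to 29.6% of a library with YAP1-S127A, 3.50 to 11.4% with YAP1 and 1.90 to 6.60% in MX, and this share is given below wherever it moved with a chemokine. Of 11 kidney and renal carcinoma markers 9 were tested. The 11 summed to 5550 to 7700 CPM with YAP1-S127A, 5005 to 6192 with YAP1 and 5685 to 6971 in MX. VIM, KRT8 and KRT18 had 1855 to 3087, 1390 to 3539 and 444 to 1060 CPM. PAX8, a kidney lineage factor, was present at 228 to 312 CPM in every library, but PAX2 reached no more than 0.0525 CPM. CDH6 had 118 to 616 CPM, LHX1 22.6 to 47.8, CDH16 6.37 to 14.9, EPCAM 6.03 to 18.9 and MME 1.27 to 9.89. CA9, a hypoxia-type enzyme typical of clear cell carcinoma, reached no more than 0.933 CPM. Of 15 leukocyte markers 5 (CD3E, MS4A1, S100A8, MPO and ELANE) had 0 counts in all 9 libraries, and PTPRC, the pan-leukocyte phosphatase CD45, reached 0.305 CPM at most, while ITGAM, the highest of the 15, had 0.888 to 2.89 CPM. The summed level of the 15 was 2.16 to 4.58 CPM with YAP1-S127A, 2.95 to 4.17 CPM with YAP1 and 4.11 to 4.40 CPM in MX. Of 5 fibroblast markers 4 were tested, with a sum of 2099 to 3814 CPM with YAP1-S127A, 1326 to 1681 CPM with YAP1 and 773 to 1308 CPM in MX. COL1A1, a collagen chain, had 744 to 3742 CPM of it and PDGFRB, a growth factor receptor, 23.5 to 58.8 CPM. LUM lay between 0.570 and 12.4 CPM, DCN between 0.113 and 1.07 CPM, and THY1 reached no more than 0.570 CPM. The part of these markers in the chemokine results was not tested. The 5 endothelial markers, 1 of them tested, summed to 0.998 to 1.30 CPM with YAP1-S127A, 0.754 to 1.14 CPM with YAP1 and 0.864 to 1.89 CPM in MX.

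The members spanned a wide range of abundance. Per kilobase of gene length, CXCL6 had 739 ± 117 CPM per kb with YAP1-S127A, 533 ± 125 with YAP1 and 279 ± 48.0 in MX (SD, n = 3 each). By that measure it ranked 16th with YAP1-S127A, 30th with YAP1 and 84th in MX among 13032 tested protein-coding genes outside the mitochondrial genome. CXCL1 followed, at 398 ± 84.9 CPM per kb with YAP1-S127A, 362 ± 89.3 with YAP1 and 179 ± 42.5 in MX. CXCL5 and CXCL8 came next with YAP1-S127A, at 136 ± 18.4 and 134 ± 60.4 CPM per kb, and these 2 did not differ beyond their spread there. In MX they were well apart, with 126 ± 21.1 CPM per kb for CXCL5 and 32.0 ± 9.11 for CXCL8. CXCL2 stood at 60.3 ± 31.4 CPM per kb with YAP1-S127A, 53.8 ± 14.2 with YAP1 and 30.6 ± 10.6 in MX, close to CXCL8 in the last group. CCL20 lay at 10.2 ± 4.33, 10.4 ± 1.25 and 6.77 ± 1.36 CPM per kb in the order YAP1-S127A, YAP1 and MX, and CXCL3 at 3.82 ± 0.744, 2.85 ± 0.892 and 1.87 ± 0.196. CCL2, with 5 to 59 counts in a library, was the scarcest, at 0.620 ± 0.382, 0.625 ± 0.0885 and 0.699 ± 0.335 CPM per kb. The length is the one deposited with the counts, and which isoforms it covers is unknown here.

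**Figure D1:**
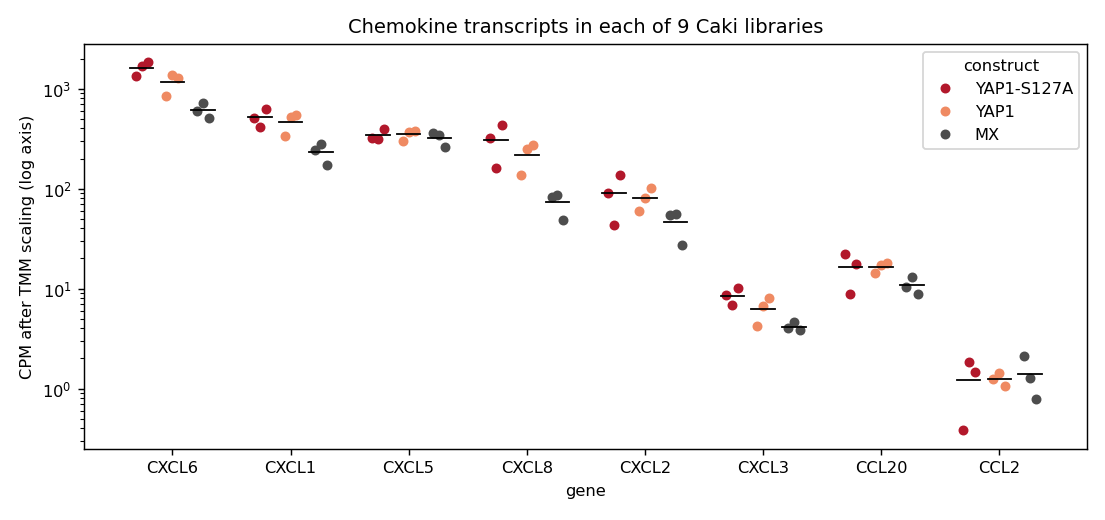
Each point is 1 library, the vertical log axis is CPM after TMM scaling, and the bar is the mean of the 3 libraries of a construct, drawn from left to right for YAP1-S127A, YAP1 and MX within each gene. CXCL6 is the most abundant member in every library, and CCL2 is the least abundant, between 0.381 and 2.10 CPM.

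Against the empty vector, 4 of the 8 chemokines rose with YAP1-S127A, CXCL6, CXCL8, CXCL1 and CXCL3, and the other 4 did not pass the test. The test was the quasi-likelihood F test of edgeR, and calls needed a Benjamini-Hochberg p, adjusted over all 15492 tested genes, below 0.05. In this comparison 9.53% of all tested genes were called higher and 8.84% lower. The median log2 fold change of the members was 1.01, against 0.00 over all tested genes. With wild-type YAP1 2 of the 8 rose, CXCL1 and CXCL6, where 3.23% of all tested genes were called higher and 3.58% lower, and the members' median was 0.72, against 0.00 over all genes. Without MX replicate 1 the count was 2 with YAP1-S127A, CXCL3 and CXCL6, and 1 with YAP1, CXCL6. Without YAP1-S127A replicate 2 it was 4 with YAP1. Both comparisons use the same MX libraries and are not independent of each other. The libraries of the groups did not overlap for 4 of 8 members with YAP1-S127A, against 32.6% of all tested genes. With YAP1 they did not overlap for 5 of 8, against 24.1%. The members were chosen with earlier results of these data known, which may add to each of these contrasts with all tested genes.

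CXCL6, also called granulocyte chemotactic protein, showed the clearest difference. Its level was 1334, 1673 and 1833 CPM in the 3 YAP1-S127A libraries, 854, 1369 and 1268 CPM in the YAP1 libraries, and 599.8, 718 and 508 CPM in the MX libraries. Every library with either construct lay above every MX library, while the YAP1-S127A and YAP1 libraries overlapped. Against MX, CXCL6 rose 2.65-fold with YAP1-S127A, or 1.41 on the log2 scale (SE 0.18, edgeR adjusted p = 1.48e-05), and 1.91-fold with YAP1, or 0.93 (SE 0.18, adjusted p = 0.00226). It kept both calls in each alternative tried, over which its log2 fold change ran from 1.15 to 1.54 with YAP1-S127A and from 0.80 to 1.12 with YAP1. The gene body of CXCL6 contains the pseudogene PPBPP1 on the same strand, which had 4 counts over all 9 libraries.

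CXCL8, interleukin-8, had the largest fold change of the 8 but also a wide spread. The YAP1-S127A libraries had 323, 160.0 and 433 CPM, the YAP1 libraries 137, 249.9 and 272 CPM, and the MX libraries 83.0, 86.4 and 48.9 CPM. All libraries of both constructs lay above all MX libraries, but the lowest YAP1-S127A library fell below 2 of the 3 YAP1 libraries. With YAP1-S127A CXCL8 rose 4.20-fold against MX (log2 fold change 2.07, SE 0.47, edgeR adjusted p = 0.0252). This call was lost in 9 of 20 alternatives, among them the fits without MX replicate 1, 2 or 3 or YAP1-S127A replicate 1 or 3 (adjusted p = 0.0645, 0.0620, 0.0743, 0.0680 and 0.0617). With YAP1 the log2 fold change was 1.59 (SE 0.46, adjusted p = 0.109), which did not pass. It passed without YAP1-S127A replicate 2, a library that is not in this contrast but adds to the estimate of spread (adjusted p = 0.0236), and in DESeq2 (adjusted p = 0.00435).

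CXCL1, CXCL2 and CXCL3 are near-identical copies, once named GRO alpha, beta and gamma, so that reads can be shared or split between them. CXCL1 had 506, 411 and 630.0 CPM with YAP1-S127A, 337, 523 and 549 CPM with YAP1, and 244, 279 and 171 CPM in MX. Both constructs thus lay above MX in all libraries and overlapped each other. CXCL1 rose by 1.16 on the log2 scale with YAP1-S127A (SE 0.22, edgeR adjusted p = 0.00200) and by 1.02 with YAP1 (SE 0.22, adjusted p = 0.0108). Without MX replicate 1 neither call held (adjusted p = 0.0533 with YAP1-S127A and 0.116 with YAP1), although the log2 fold changes were then 1.19 and 1.06.

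CXCL3 had 8.54, 6.79 and 10.1 CPM with YAP1-S127A, 4.20, 6.63 and 8.12 CPM with YAP1, and 3.99, 4.65 and 3.83 CPM in MX. The YAP1-S127A libraries lay above MX, while 1 YAP1 library fell among the MX values. CXCL3 rose by 1.04 on the log2 scale with YAP1-S127A (SE 0.23, edgeR adjusted p = 0.00292). With YAP1 its log2 fold change was 0.61 (SE 0.23, adjusted p = 0.120), which passed without YAP1 replicate 1 (adjusted p = 0.0298). CXCL2 had 91.3, 43.0 and 137 CPM with YAP1-S127A, 59.7, 80.2 and 102 CPM with YAP1, and 54.8, 55.4 and 27.5 CPM in MX. Its YAP1 libraries lay above MX and its YAP1-S127A libraries did not separate from MX, with 1 of them below 2 MX libraries. Neither difference of CXCL2 passed the test, at log2 fold changes of 0.98 (SE 0.49, adjusted p = 0.236) with YAP1-S127A and 0.82 (SE 0.49, adjusted p = 0.440) with YAP1.

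When the counts of the 3 copies were summed, so that a split of reads among them no longer mattered, the sum averaged 614 CPM with YAP1-S127A, 556 CPM with YAP1 and 281 CPM in MX. The sum rose by 1.13 on the log2 scale with YAP1-S127A (SE 0.24, edgeR adjusted p = 0.00564) and by 0.98 with YAP1 (SE 0.24, adjusted p = 0.0270). CXCL1 made up 80.6 to 89.2% of the sum in a library, so the sum mostly restates CXCL1. Its call against MX was lost without MX replicate 1 for both constructs (adjusted p = 0.0799 with YAP1-S127A and 0.160 with YAP1). For YAP1 it was also lost without MX replicate 3 or YAP1 replicate 2 or 3 (adjusted p = 0.0560, 0.0963 and 0.0898). The pseudogene CXCL1P1 had 0 counts in all 9 libraries.

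CXCL5, the epithelial neutrophil-activating peptide and a close relative of CXCL6, had 319.8, 314 and 398 CPM with YAP1-S127A, 298, 372 and 381 CPM with YAP1, and 358, 345 and 259 CPM in MX. The 3 groups overlapped. Its log2 fold change was 0.10 (SE 0.14, edgeR adjusted p = 0.682) with YAP1-S127A and 0.13 (SE 0.14, adjusted p = 0.698) with YAP1, the smallest standard errors among the members. Scaled to total counts, CXCL5 had -0.17 with YAP1-S127A (adjusted p = 0.442), where that scaling moved the median of all genes by -0.27.

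CCL20, a ligand of lymphocytes and dendritic cells, had 22.4, 8.82 and 17.6 CPM with YAP1-S127A, 14.4, 17.1 and 18.2 CPM with YAP1, and 10.4, 13.1 and 8.83 CPM in MX. The YAP1 libraries lay above MX, whereas YAP1-S127A replicate 2 was as low as the lowest MX library. The log2 fold changes of 0.60 (SE 0.26, edgeR adjusted p = 0.142) with YAP1-S127A and 0.63 (SE 0.26, adjusted p = 0.199) with YAP1 did not pass. Without YAP1-S127A replicate 2 both passed, at log2 fold changes of 0.89 (adjusted p = 0.00231) and 0.63 (adjusted p = 0.0248). CCL2, the monocyte chemoattractant, had 5, 29 and 28 counts with YAP1-S127A, 24, 25 and 24 counts with YAP1, and 59, 21 and 21 counts in MX. In CPM these were 0.381, 1.84 and 1.47 with YAP1-S127A, 1.24, 1.42 and 1.06 with YAP1, and 2.10, 1.27 and 0.789 in MX. The groups overlapped, and the log2 fold changes were -0.15 (SE 0.44, adjusted p = 0.865) with YAP1-S127A and -0.18 (SE 0.44, adjusted p = 0.875) with YAP1. With standard errors of this size a change of CCL2 would have been detectable only if large.

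**Figure D2:**
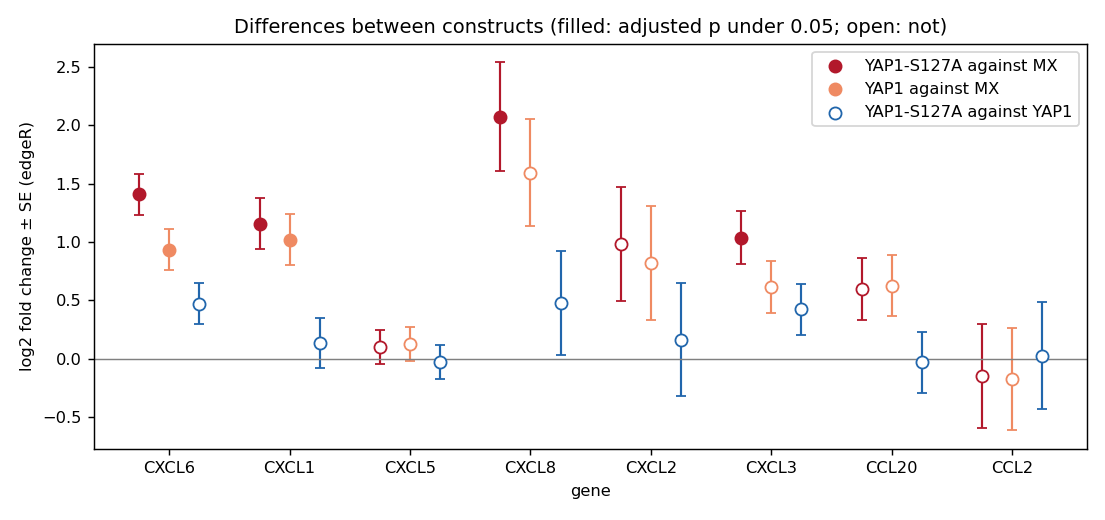
The vertical axis is the log2 fold change from edgeR with its standard error, for YAP1-S127A against MX, YAP1 against MX and YAP1-S127A against YAP1 from left to right within each gene, and filled points passed an adjusted p of 0.05. CXCL6 and CXCL1 are filled against MX with both constructs, CXCL8 and CXCL3 only with YAP1-S127A, and no point is filled between the constructs.

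The direct comparison of the constructs shows where YAP1-S127A and wild-type YAP1 differ, since a gene that passes with one construct and not with the other has not thereby been shown to differ. The YAP1 transcript averaged 688 CPM with YAP1-S127A and 1220 CPM with YAP1 (log2 fold change -0.83, edgeR adjusted p = 0.00383). The mutation and the amount of transcript cannot be told apart here. By edgeR 0 of the 8 members passed in YAP1-S127A against YAP1, where 1.13% of all tested genes were called higher and 0.839% lower. DESeq2 and limma-voom also called 0, and 1 member, CXCL6, had an unadjusted p under 0.05. Its log2 fold change was 0.47 (SE 0.18, adjusted p = 0.240), that of CXCL8 0.48 (SE 0.45, adjusted p = 0.755) and that of CXCL3 0.42 (SE 0.22, adjusted p = 0.461). CXCL1 had 0.14 (SE 0.21) and CXCL2 0.17 (SE 0.48), both of which turned negative when scaled to total counts, at -0.07 and -0.06. CXCL5 had -0.03 (SE 0.14), CCL20 -0.03 (SE 0.26) and CCL2 0.03 (SE 0.45). The libraries of the 2 constructs overlapped for all 8 members, where 19.6% of all tested genes did not overlap.

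A ratio of 2 genes within a library does not depend on how libraries are scaled to each other. The following ratios were chosen after the values were seen and are given without a test. CXCL6 had 4.17, 5.32 and 4.61 counts for each count of CXCL5 in the YAP1-S127A libraries, 2.86, 3.68 and 3.33 in the YAP1 libraries, and 1.68, 2.08 and 1.96 in the MX libraries. The 3 groups were fully apart by this ratio, with YAP1-S127A highest and MX lowest. CXCL8 had 1.01, 0.509 and 1.09 counts for each count of CXCL5 with YAP1-S127A, 0.458, 0.671 and 0.714 with YAP1, and 0.232, 0.251 and 0.189 in MX. Here both constructs lay above MX, and YAP1-S127A replicate 2 lay within the range of YAP1.

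**Figure D3:**
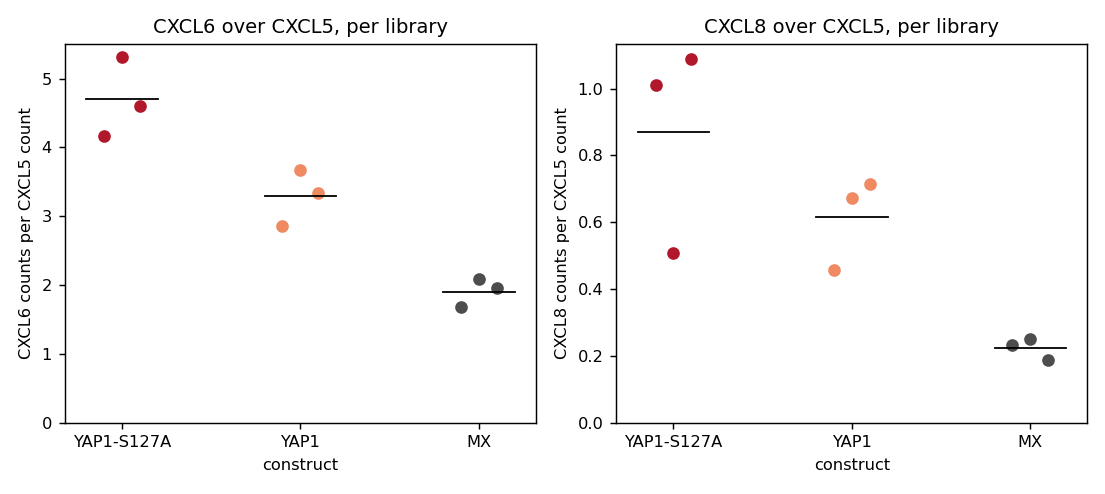
Each point is 1 library and the bar is the mean of 3, with CXCL6 counts per CXCL5 count on the left and CXCL8 counts per CXCL5 count on the right, for YAP1-S127A, YAP1 and MX. The CXCL6 ratio lies from 4.17 to 5.32 with YAP1-S127A, from 2.86 to 3.68 with YAP1 and from 1.68 to 2.08 in MX, and the CXCL8 ratio overlaps between YAP1-S127A and YAP1.

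The make-up of the chemokine pool shifted in part. Of the summed level per kilobase of the 8 members, CXCL6 made up 50.2% ± 6.99 with YAP1-S127A, 44.5% ± 1.74 with YAP1 and 42.7% ± 2.64 in MX (SD, n = 3 each). The CXCL6 share with YAP1, from 42.8 to 46.3%, overlapped that of both other groups. With YAP1-S127A it was 45.3, 58.2 and 47.2% in replicates 1, 2 and 3. CXCL5 made up 9.19% ± 0.336 with YAP1-S127A, 11.7% ± 1.40 with YAP1 and 19.4% ± 1.46 in MX, with no overlap between the 3 groups. CXCL8 made up 8.86% ± 3.04, 7.91% ± 0.999 and 4.82% ± 0.579 in the same order, and CXCL1 26.8% ± 2.46, 30.2% ± 0.896 and 27.1% ± 1.28. The summed level was 1481 ± 260 CPM per kb with YAP1-S127A, 1197 ± 275 with YAP1 and 656 ± 128 in MX.

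The mitochondrial share of a library moved in part with the level of several members within a construct. In all 3 groups the library with the lowest mitochondrial share was the one with the lowest CXCL1, CXCL2, CXCL3, CXCL5, CXCL8 and CCL20, and for CCL20 the 3 libraries of every group stood in the order of that share. CXCL1, CXCL2, CXCL3 and CXCL8 stood in that order in 2 of 3 groups, YAP1 and MX, and CXCL5 in 1, YAP1. With YAP1-S127A they did not. There CXCL8 had 323 CPM and CXCL2 91.3 CPM in replicate 1, with the highest share at 29.6%, 433 and 137 CPM in replicate 3, with 21.2%, and 160.0 and 43.0 CPM in replicate 2, with 7.40%. CXCL6 stood in the order of the share in 1 group, MX. With YAP1-S127A its lowest level was in replicate 1, at the highest share, and with YAP1 it had 1268 CPM at 11.4% and 1369 CPM at 8.60%. CCL2 stood in that order in 0 of 3 groups.

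With the mitochondrial share as a covariate in the edgeR fit, 1 member, CXCL6, was called in YAP1-S127A against MX, at a log2 fold change of 1.37 (adjusted p = 0.000828). CXCL8 then had 1.04 (adjusted p = 0.0852), CXCL1 0.71 (adjusted p = 0.0699) and CXCL3 0.59 (adjusted p = 0.265). With YAP1-S127A reduced to replicate 2, CXCL6 alone was again called, and CXCL8 had 1.13 (adjusted p = 0.193), CXCL1 0.82 (adjusted p = 0.0763) and CXCL3 0.71 (adjusted p = 0.213). In YAP1 against MX, 3 members were called with the covariate, CXCL1, CXCL6 and CXCL8. In YAP1-S127A against YAP1 the covariate gave CCL20 a log2 fold change of -0.82 (adjusted p = 0.0328), lower with YAP1-S127A. The share and the construct are partly confounded, and the part of the share in these results was not tested.

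**Figure D4:**
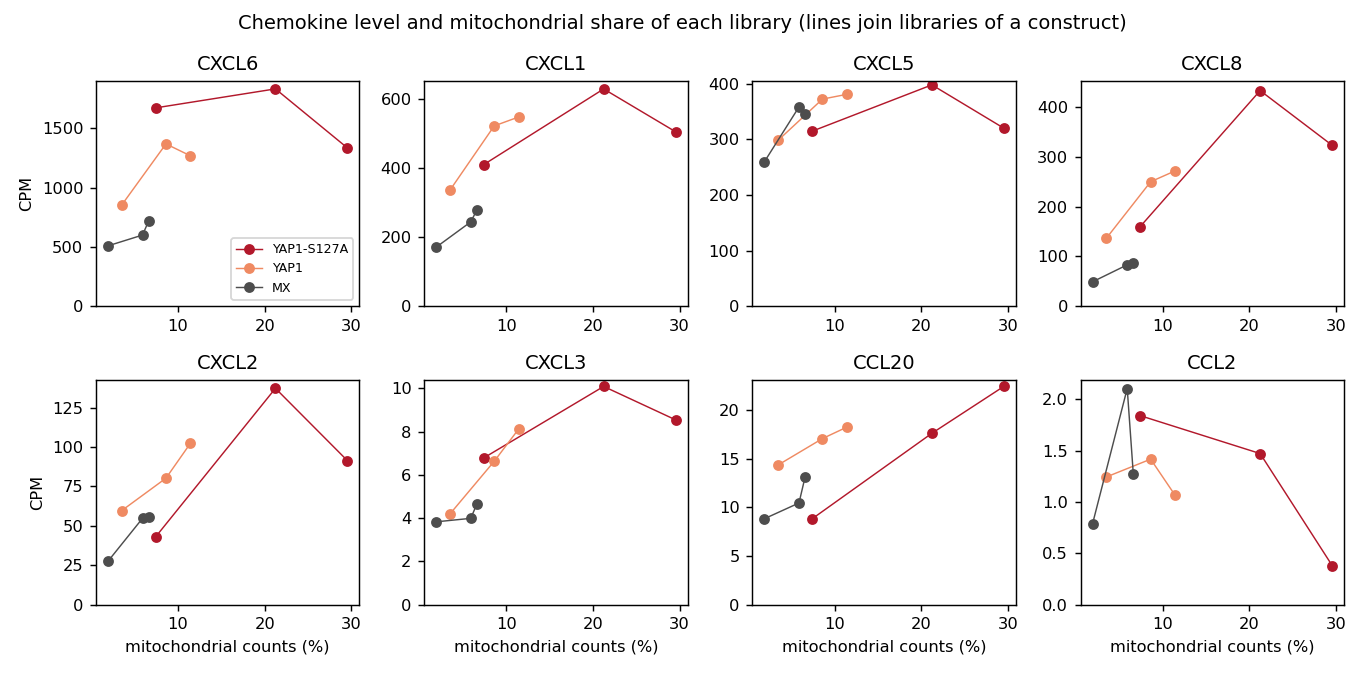
Each panel is 1 chemokine, with the mitochondrial share of a library's counts in percent on the horizontal axis and CPM on the vertical axis, and lines join the libraries of a construct. CXCL8, CXCL2 and CCL20 are lowest at the lowest share within every construct, and CXCL6 with YAP1-S127A is not.

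Over the 9 libraries the 6 CXC members correlated with one another, with Pearson's r from 0.53 to 0.98 over their 15 pairs on log2 CPM. This describes 9 libraries that share 3 constructs and is not independent of the group differences. After the group means were taken out, r was 0.48 to 0.97, with CXCL2 and CXCL8 the closest pair and CXCL2 and CXCL6 the most distant. The correlation was not limited to CXC members. CCL20 had r from 0.52 with CXCL6 to 0.87 with CXCL2. After the group means were taken out, its r ran from 0.13 with CXCL6 to 0.82 with CXCL8. CCL2 had lower r, from -0.49 to 0.38 with the other 7 members. It had only 5 to 59 counts a library, and counting error at such levels can lower r.

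The genes outside the 8 whose log2 CPM most resembled that of a member were sought among the 11484 other coding genes whose log2 CPM averaged 1 or more. A search of this size over 9 libraries that share 3 constructs can give a high r by selection and through the group differences. Over the 9 libraries CXCL6 was closest to PPP1R2 (r = 0.99), ASPH (r = 0.99) and TAF13 (r = 0.99), and CXCL8 to IL6 (r = 0.98), VNN1 (r = 0.98) and FBXO5 (r = 0.98). IL6, the inflammatory cytokine interleukin-6, rose by 2.26 on the log2 scale with YAP1-S127A (adjusted p = 3.88e-05) and by 1.55 with YAP1 (adjusted p = 0.00203). The closest genes were PLEKHG5 for CXCL1 (r = 0.97), SLC25A16 for CXCL2 (r = 0.96), GMPR2 for CXCL3 (r = 0.99), TMEM123 for CXCL5 (r = 0.93), ISL1 for CCL20 (r = 0.97) and YY2 for CCL2 (r = 0.89).

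By the positions in the count table, for which the sources used here name no human build, the 6 CXC genes lie within 359 kb of chromosome 4. CXCL8 (ENSG00000169429) runs from 73740506 to 73743716 and CXCL6 (ENSG00000124875) from 73836497 to 73849064, both on the plus strand, as does CXCL1 (ENSG00000163739) from 73869393 to 73871242. CXCL5 (ENSG00000163735) from 73995642 to 73998779, CXCL3 (ENSG00000163734) from 74036589 to 74038807 and CXCL2 (ENSG00000081041) from 74097035 to 74099293 lie on the minus strand. CCL20 (ENSG00000115009) is on chromosome 2 from 227805739 to 227817564 and CCL2 (ENSG00000108691) on chromosome 17 from 34255218 to 34257203, both on the plus strand. The 3 plus-strand CXC genes were called higher with YAP1-S127A, and of the 3 on the minus strand CXCL3 was. CXCL2, which did not pass, had a log2 fold change of 0.98 (SE 0.49), beside 1.04 (SE 0.23) for CXCL3 and 1.16 (SE 0.22) for CXCL1. That of CXCL5 was 0.10 (SE 0.14). A difference by strand was not tested.

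Neighbouring genes went both ways. Within 500 kb of the cluster 28 other genes are listed, of which 11 were tested. With YAP1-S127A 1 of them rose and 3 fell against MX, and with YAP1 1 rose and 2 fell. Among all tested genes 9.53% were called higher and 8.84% lower with YAP1-S127A, and 3.23% and 3.58% with YAP1. The counts of these 11 genes were not tested against those shares. PF4, platelet factor 4, lies between CXCL1 and CXCL5 and is a close copy of PF4V1. PF4 fell by 1.41 on the log2 scale with YAP1-S127A (adjusted p = 0.0152) and by 1.54 with YAP1 (adjusted p = 0.0176). Its level was 1.18 ± 0.405 CPM with YAP1-S127A, 1.11 ± 0.194 with YAP1 and 3.30 ± 1.98 in MX. PF4V1 was more abundant, at 17.4 ± 3.87, 12.4 ± 3.06 and 11.8 ± 4.07 CPM in the same order. The log2 fold change of PF4V1 was 0.58 (adjusted p = 0.0958) with YAP1-S127A and 0.09 (adjusted p = 0.880) with YAP1. Reads can be shared or split between these copies, and their sum was not tested. RASSF6, a Ras-association protein before the cluster, changed by -0.71 with YAP1-S127A (adjusted p = 0.00784) and by -0.60 with YAP1 (adjusted p = 0.0423).

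Beyond CXCL2 lie genes of epidermal growth factor receptor ligands. AREG, amphiregulin, changed by -0.92 with YAP1-S127A against MX (adjusted p = 0.000550) and had -0.21 with YAP1 (adjusted p = 0.531). EREG, epiregulin, rose by 0.60 with YAP1 (adjusted p = 0.0235) and had 0.00 with YAP1-S127A (adjusted p = 0.996). AFP, alpha-fetoprotein, which lies before RASSF6, rose by 0.86 with YAP1-S127A (adjusted p = 0.0158) at only 3.45 CPM, against 1.88 CPM in MX.

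**Figure D5:**
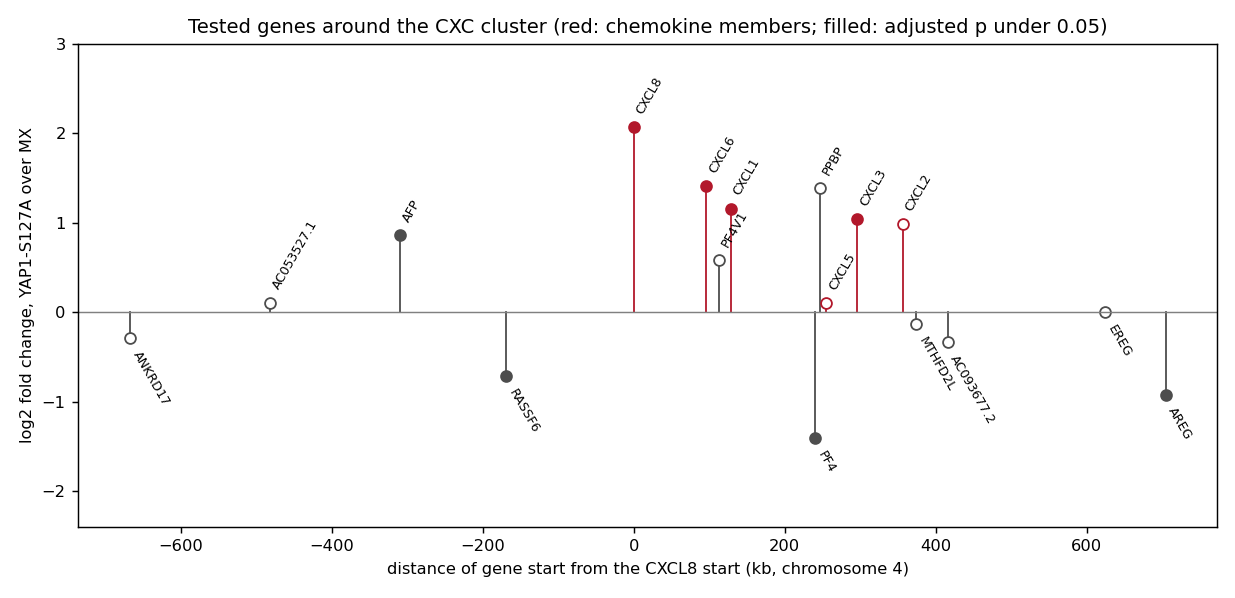
The horizontal axis is the distance of each tested gene's start from that of CXCL8 in kilobases along chromosome 4, and the vertical axis the log2 fold change of YAP1-S127A over MX. The chemokine members, in red, run from 0.10 for CXCL5 to 2.07 for CXCL8, and the neighbours lie on both sides of 0, from -1.41 for PF4 upward.

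Other parts of the chemokine system were read from fixed gene lists. Of 36 other chemokine ligands 9 had enough reads for a test, and 2 of these rose and 1 fell with YAP1-S127A against MX, 1 rose and 1 fell with YAP1, and 1 was higher with YAP1-S127A than with YAP1. Shares of all tested genes called higher and lower were 9.53% and 8.84% with YAP1-S127A, and 3.23% and 3.58% with YAP1. Between the constructs they were 1.13% and 0.839%. No list, here or below, was tested as a set against such shares, and the lists were chosen with earlier results of these data known. CXCL16, a transmembrane chemokine, rose by 0.62 with YAP1-S127A (adjusted p = 0.000789) and by 0.58 with YAP1 (adjusted p = 0.00313). CCL5, a ligand of T cells, rose by 0.74 with YAP1-S127A against MX (adjusted p = 0.0350) and was higher than with YAP1 by 1.00 (adjusted p = 0.0395), at 5.25 ± 0.464 CPM with YAP1-S127A, 2.64 ± 0.738 with YAP1 and 3.17 ± 0.657 in MX. The third called gene was PF4, given above with its close copy PF4V1. Of 23 chemokine receptors 2 were tested, CCR10 and ACKR4, and edgeR, DESeq2 and limma-voom called 0 of them in each comparison, with 1 at an unadjusted edgeR p under 0.05 in YAP1 against MX and 0 in the other 2. The CXC receptors CXCR1 and CXCR2 were among the receptors below the filter.

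Of 16 NF-kB subunits, inhibitors and kinases, all tested, 1 rose and 1 fell against MX with each construct, and edgeR, DESeq2 and limma-voom called 0 between the constructs, where 1 had an unadjusted edgeR p under 0.05. NFKBIE, an inhibitor that holds NF-kB in the cytoplasm, rose by 0.49 with YAP1-S127A (adjusted p = 0.0178) and by 0.47 with YAP1 (adjusted p = 0.0477). BCL3, a nuclear cofactor of NF-kB, changed by -0.46 (adjusted p = 0.0244) and by -0.53 (adjusted p = 0.0230) with the same constructs. The median over the 16 was 0.11 with YAP1-S127A and 0.10 with YAP1, against -0.0045 and -0.0036 over all tested genes. Of all tested genes 9.53% were called higher and 8.84% lower with YAP1-S127A, and 3.23% and 3.58% with YAP1.

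Among 19 tested cytokines, receptors and adaptors that act upstream of NF-kB, 2 rose and 4 fell with YAP1-S127A against MX, and 1 rose and 1 fell with YAP1. Over all tested genes the shares were 9.53% higher and 8.84% lower with YAP1-S127A, and 3.23% and 3.58% with YAP1. IL1B, a cytokine of the interleukin-1 family, changed by -1.51 with YAP1-S127A (adjusted p = 0.00369), IL1R1, its signalling receptor, by -0.64 (adjusted p = 0.00245), and IL1R2, its decoy receptor, by -2.41 (adjusted p = 0.00517), with IL1B at 0.798 CPM against 2.24 in MX and IL1R2 at 0.221 CPM against 1.17. Other interleukin-1 genes of the list, named after their values were seen, did not pass, with 0.16 for the cytokine IL1A (adjusted p = 0.656), -0.09 for the co-receptor IL1RAP (adjusted p = 0.729) and -0.17 for the adaptor MYD88 (adjusted p = 0.386). IRAK2, a kinase that works with MYD88, changed by -0.52 (adjusted p = 0.0131), while its relative IRAK1 rose by 0.74 (adjusted p = 0.000261). Between the constructs edgeR, DESeq2 and limma-voom called 0 of the 19, and 3 had an unadjusted edgeR p under 0.05.

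Of 14 tested inflammatory genes that respond to NF-kB, apart from chemokines, 6 rose and 2 fell with YAP1-S127A, and 3 rose and 1 fell with YAP1. All tested genes gave shares of 9.53% higher and 8.84% lower with YAP1-S127A, and 3.23% and 3.58% with YAP1. CSF2, the granulocyte-macrophage colony-stimulating factor, rose by 3.65 with YAP1-S127A (adjusted p = 5.18e-07) and by 1.78 with YAP1 (adjusted p = 0.00620), and SAA1, an acute-phase protein, by 1.09 (adjusted p = 0.000112) and by 0.66 (adjusted p = 0.0192). CSF2 was scarce, at 6.18 ± 1.62 CPM with YAP1-S127A, 1.68 ± 0.428 with YAP1 and 0.486 ± 0.262 in MX. TNFAIP2 rose by 0.48 with YAP1-S127A (adjusted p = 0.00911). VCAM1, an adhesion molecule for leukocytes, went the other way, with -1.74 (adjusted p = 4.54e-08) and -1.11 (adjusted p = 3.62e-05), at 614 CPM with YAP1-S127A, 955 CPM with YAP1 and 2058 CPM in MX. In YAP1-S127A against YAP1, 1 of the 14 was called higher, CSF2 by 1.87 (edgeR adjusted p = 0.00237). There 1 was lower, VCAM1 at -0.64 (adjusted p = 0.0177), where 1.13% of all tested genes were higher and 0.839% lower.

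AP-1 and C/EBP factors gave 2 higher and 1 lower of 10 with YAP1-S127A against MX. In that comparison 9.53% of all tested genes were called higher and 8.84% lower. ATF3 rose by 1.23 (adjusted p = 7.47e-06) and FOSB by 1.17 (adjusted p = 0.00721), and FOSL2 changed by -0.34 (adjusted p = 0.0400). In YAP1-S127A against YAP1, edgeR called ATF3 and FOSB higher, by 0.77 (adjusted p = 0.00595) and 1.18 (adjusted p = 0.0411). DESeq2 called 3 of the 10 there and limma-voom 1. Of all tested genes 1.13% were called higher and 0.839% lower between the constructs. With YAP1 edgeR, DESeq2 and limma-voom called 0 of the 10, and 1 had an unadjusted edgeR p under 0.05. Among 9 regulators of AU-rich mRNA decay 1 rose and 1 fell with YAP1-S127A, RC3H2, a roquin, by 0.47 (adjusted p = 0.0315) and HNRNPD, the AU-binding protein AUF1, by -0.43 (adjusted p = 0.0238). All 3 tools called 0 of these 9 with YAP1 and between the constructs, where 0 and 1 had an unadjusted edgeR p under 0.05.

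Of 10 tested proteins that trim chemokines or hold them on the cell surface, 3 rose and 2 fell with YAP1-S127A, and 1 rose and 1 fell with YAP1. Among all tested genes 9.53% were called higher and 8.84% lower with YAP1-S127A, and 3.23% and 3.58% with YAP1. MMP2, a gelatinase, rose by 1.52 (adjusted p = 5.20e-08) and by 1.26 (adjusted p = 2.19e-06), and MMP1, interstitial collagenase, changed by -3.32 (adjusted p = 6.83e-09) and by -3.44 (adjusted p = 1.48e-08), with YAP1-S127A and YAP1 in that order. The heparan sulfate proteoglycans GPC1 and SDC2 rose with YAP1-S127A by 0.85 (adjusted p = 0.00512) and 0.73 (adjusted p = 0.00962). DPP4, a peptidase that shortens several chemokines, changed by -0.57 with YAP1-S127A against MX (adjusted p = 0.00401) and by -0.59 against YAP1 (adjusted p = 0.0191).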

How the data were processed

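RNA was sequenced from 9 libraries. The deposited values are raw counts per gene, with a gene length in bases beside them. The submitters' processing notes name HISAT2, Cufflinks, Salmon 1.9.0 and the mouse build GRCm39, without their roles. The identifiers are human Ensembl genes, so no mouse coordinates were used. Neither the human build nor the counter and its strand option could be read from the labels, which name a stranded mRNA kit.

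The filterByExpr filter of edgeR 4.0.16 in R 4.3.3 kept 15492 genes. These were scaled by TMM and fitted over all libraries on group alone, with robust dispersions, in two-sided quasi-likelihood tests. Standard errors were taken as the log2 fold change over the root of F, without sign. Likeness used log2 CPM with a prior count of 2. From each gene list the text names up to 5 called genes, by smallest adjusted p over the 3 comparisons. The members and lists were chosen with earlier results of these data known. Alternatives used DESeq2 1.42.0, limma 3.58.1 (voom), other scalings and filters, left-out libraries and mitochondrial terms. The steps were tested on simulated counts. At these depths 3 counts stand for 0.107 to 0.229 CPM, a limit that covers counting error only.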

Additional observations from a re-analysis of the deposited data

How the results depend on the processing

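Each member and count was recomputed under 19 alternatives in YAP1 against MX and 20 in the other comparisons, of which 1, with YAP1-S127A reduced to replicate 2, was chosen after seeing the data. Where a direction or call changed, the cause was not tested. For YAP1 against MX the number of members called was 4 when only the 2 groups compared were fitted and 1 with a replicate block, and ran from 1 to 4 when each library was left out in turn. For YAP1-S127A against MX it was 1 with the mitochondrial share as covariate, 1 with YAP1-S127A reduced to replicate 2, and 2 to 5 with a library left out. For YAP1-S127A against YAP1 it was 1 with the covariate.

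The log2 fold change of summed CXCL1, CXCL2 and CXCL3 under the replicate block was 1.11 (adjusted p = 0.0861) in YAP1-S127A against MX and 0.96 (adjusted p = 0.189) in YAP1 against MX. In YAP1-S127A against MX it was 0.60 with the covariate and 0.71 with the reduced group (edgeR adjusted p = 0.157 and 0.151), and 0.93 to 1.29 with a library left out, against 0.79 to 1.17 in YAP1 against MX. In YAP1-S127A against YAP1 it was -0.064 with total counts, -0.27 with the covariate, -0.29 with the reduced group, and -0.066 to 0.31 with a library left out.

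In YAP1-S127A against MX, the covariate and the reduced group gave -0.10 and -0.10 for CXCL2, -0.079 and -0.034 for CXCL5, 0.49 and 0.39 for CCL2, and -0.38 and -0.29 for CCL20, and total counts gave -0.17 for CXCL5. With a library left out CXCL5 ran from -0.037 to 0.18 and CCL2 from -0.51 to 0.31 there, against -0.0058 to 0.23 and -0.48 to 0.29 in YAP1 against MX. In YAP1-S127A against YAP1, total counts, the covariate and the reduced group gave -0.069, -0.21 and -0.20 for CXCL1 and -0.060, -0.70 and -0.92 for CXCL2. The covariate and the reduced group gave -0.33 and -0.47 for CXCL8, and total counts and limma-voom gave -0.15 and -0.16 for CCL2. With a library left out, the ranges there were -0.061 to 0.27 for CXCL1, -0.27 to 0.50 for CXCL2, -0.15 to 0.035 for CXCL5, -0.34 to 0.41 for CCL2 and -0.32 to 0.26 for CCL20. None of the members in these reversals was called in its comparison in the main edgeR fit. In YAP1-S127A against MX, CCL20 was called higher without YAP1-S127A replicate 2 (adjusted p = 0.00231) and with no filter on low counts (adjusted p = 0.00516). In YAP1-S127A against YAP1 it was called lower with the covariate (adjusted p = 0.0328).

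The labels link libraries of different groups only by a replicate number, and whether same-numbered libraries were handled together is unknown. Deviations of same-numbered libraries correlated at -0.18 to 0.20 over 9 pairs, and others at -0.25 to 0.21 over 18 pairs. The block changed calls over all genes to 3426, against 2845, in YAP1-S127A against MX, to 1428, against 1055, in YAP1 against MX, and to 472, against 305, in YAP1-S127A against YAP1. Counts limit CCL2 most, at 5 to 59 a library.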
